A study of Homo sapiens with 6 samples.

Results

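The genes described here carry out antigen presentation or serve as ligands of NKG2D, an activating receptor of natural killer (NK) cells, and were compared between 2 sublines of the T47D breast cancer line. The set was listed by gene symbol and held 39 genes of the 25940 gene names on the array. All 39 had at least 1 probe, with 66 probes in total. Of these, 44 probes for 29 genes stood well above background on 3 or more of the 6 arrays, and these were tested. The other 10 genes are accounted for with their groups below.

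T47D is a human luminal breast cancer line that carries estrogen and progesterone receptors, and T47Dco is the variant of it used here. T47Dco tumors were grown in ovariectomized NSG mice, which lack T, B and NK cells but keep myeloid and stromal cells, and each subline came from 1 tumor. Pure luminal cells (pLUM, 3 arrays) came from a tumor grown with estradiol (E). They were cultured for about 2 months in 1 nM E, sorted as CLD3+CD49f-, cultured for about 2 months more and resorted 2 times, and they received 1 nM E for 72 h before RNA was collected. Pure luminobasal cells (pLB, 3 arrays) came from a tumor grown with E and progesterone. They were cultured for about 2.5 months under E withdrawal (EWD), sorted as CLD3-CD49f+, cultured for about 2 months more under EWD and resorted 2 times. Both lines were kept in medium with 5% charcoal-stripped serum. All cells were then fixed, stained for cytokeratin 5 (CK5) and sorted again, and it is not given in the sources used here whether the CK5+ or CK5- cells went onto the arrays. Subline, source tumor, the hormones given to it and estradiol in culture changed together, so that their parts in any difference cannot be told apart. The 3 samples of a line are triplicate sorts, and p-values measure only the spread between such sorts.

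MHC class I molecules show peptides made in the cytosol to CD8+ T cells. The proteasome cuts the peptides, TAP carries them into the endoplasmic reticulum (ER), ER aminopeptidases trim them, and a loading complex fits them into a heavy chain held by beta-2-microglobulin. MHC class II molecules show peptides from endosomes to CD4+ T cells and are usually made by professional antigen presenting cells, in which the transactivator CIITA drives them together with the invariant chain CD74. Epithelial cells can make them after exposure to interferon-gamma. NK cells read class I as an inhibitory signal and stress-induced NKG2D ligands (MICA, MICB and the ULBP family) as an activating signal.

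The upstream sequences of 4 NKG2D ligands and of B2M are shown because these genes gave opposite results within a family (the ULBP genes against the MIC genes) and because B2M serves all class I chains. RefSeq promoters (GRCh38.p14) were matched for 32 of 39 members, by symbol. The windows below hold the 150 bases before the annotated start, on the + strand, at chr6:149963793-149963942 (ULBP1), chr6:149941864-149942013 (ULBP2), chr6:31403445-31403594 (MICA), chr6:31497995-31498144 (MICB) and chr15:44711367-44711516 (B2M). Capitals mark the motif TGACG in the ULBP genes and the motif CCAAT in the MIC genes, each searched on both strands. In B2M they mark both of these motifs and also the motif GAAANNGAAA. On the opposite strand the first reads CGTCA, whereas the second then appears as ATTGG.
ULBP1: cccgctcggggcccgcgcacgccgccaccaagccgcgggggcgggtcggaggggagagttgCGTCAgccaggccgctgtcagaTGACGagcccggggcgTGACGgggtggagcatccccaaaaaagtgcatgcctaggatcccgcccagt
ULBP2: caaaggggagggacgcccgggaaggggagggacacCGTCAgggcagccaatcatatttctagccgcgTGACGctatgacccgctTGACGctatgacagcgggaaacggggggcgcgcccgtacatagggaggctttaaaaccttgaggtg
MICA: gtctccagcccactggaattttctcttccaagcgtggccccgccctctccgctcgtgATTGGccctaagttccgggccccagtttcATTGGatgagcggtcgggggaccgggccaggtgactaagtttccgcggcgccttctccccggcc
MICB: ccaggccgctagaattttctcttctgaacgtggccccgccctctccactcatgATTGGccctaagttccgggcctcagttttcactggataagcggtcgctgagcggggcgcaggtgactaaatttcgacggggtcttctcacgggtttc
B2M: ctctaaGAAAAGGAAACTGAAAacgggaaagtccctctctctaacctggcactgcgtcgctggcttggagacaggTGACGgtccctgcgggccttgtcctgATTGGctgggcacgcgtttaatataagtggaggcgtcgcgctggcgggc

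In the 250 bases before the start, TGACG occurred at least 3 times in ULBP1 and in ULBP2, a number that 1.01% of all 35116 promoters reached. MICA and MICB held none, and neither did ULBP3, whose sequence is not shown. CCAAT was found in 23 of the 32 matched members and in 32.0% of all promoters, and TGACG in 13 members and in 21.2% of all promoters. GAAANNGAAA, the core of the interferon-stimulated response element, was found in 8 members (B2M, ERAP2, HLA-F, PSMB10, RFX5, TAP1, TAP2 and TAPBP) and in 3.02% of all promoters. In B2M it was matched at -144 and again, overlapping itself, at -138. Some members have more than 1 promoter in the table (42 promoters for 32 genes), so the member counts and the promoter shares are not on the same footing. These matches describe letters and do not show that a factor was bound.

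Each value below is the log2 of a probe's signal after division by the 75th percentile of its array. Fold changes compare a probe with itself in the other line, since levels of different probes cannot be compared. A gene was called when its brightest tested probe differed at least 2-fold with an adjusted p under 0.05 (limma, Benjamini-Hochberg over all 23105 tested probes). Of the 29 tested members, 14 were called higher and 4 lower in pLB, where 22.7% of all 17670 tested genes were called higher and 23.0% lower. By probes, 19 of 44 were called higher and 9 lower, against 21.9% and 23.7% of all tested probes. The median fitted log2 fold change was 0.99 over the 29 members and 0.04 over all tested genes. The arrays of both lines did not overlap for 23 of the 29 members, as was so for 69.1% of all genes. Many genes of every kind separated these lines, so that separation alone says little about antigen presentation.

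**Figure D1:**
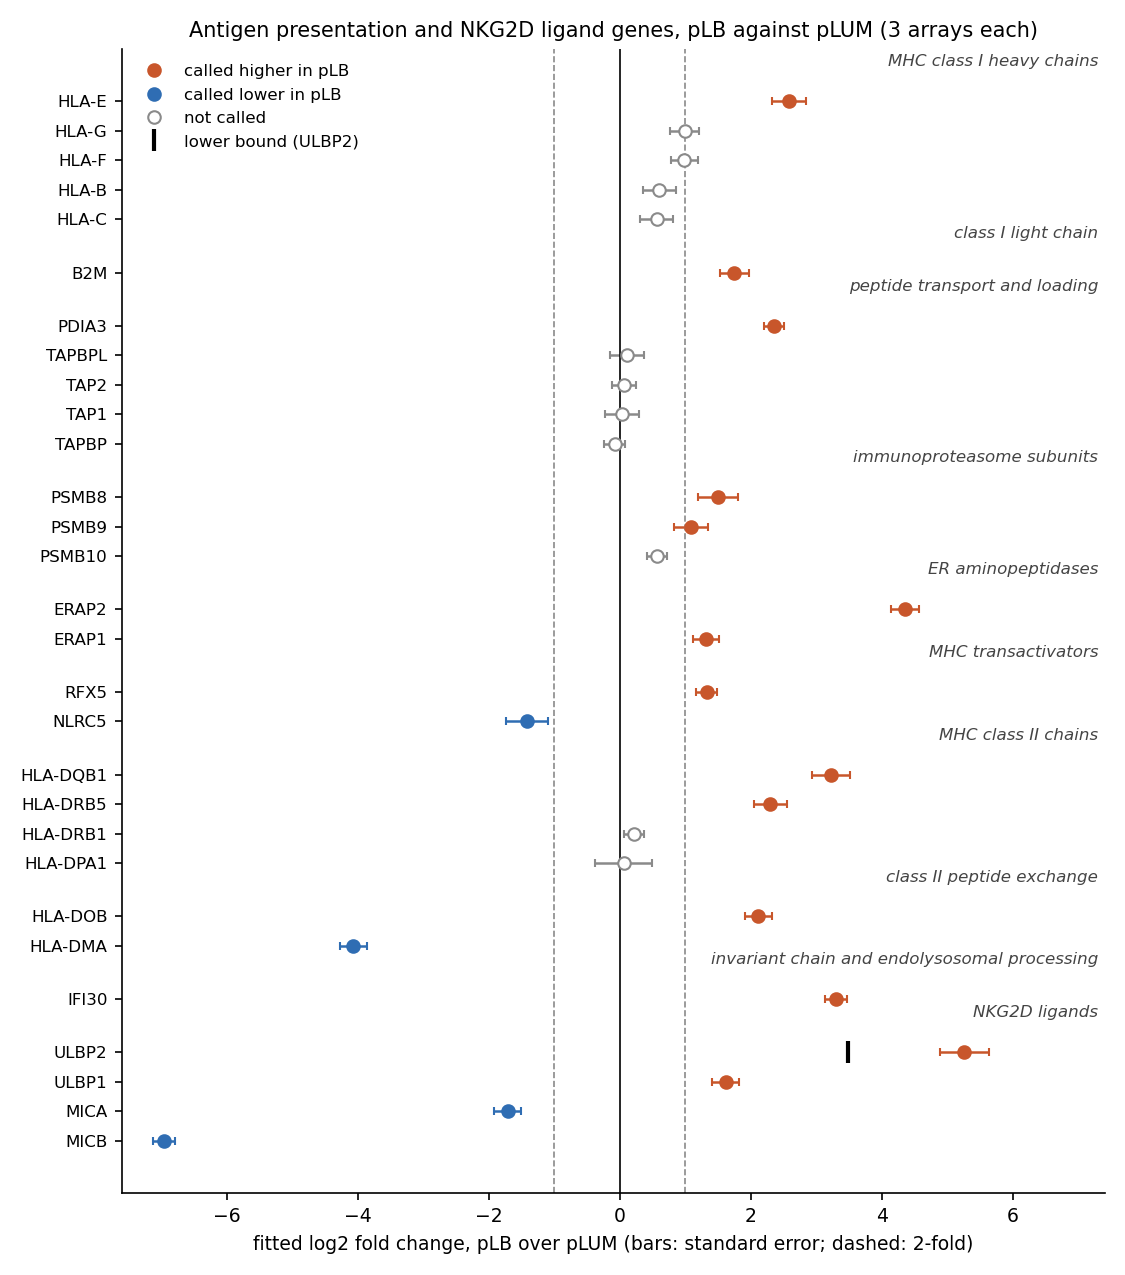
Fitted log2 fold change (horizontal axis, pLB over pLUM, with standard error) of the brightest probe of the 29 tested genes, grouped by role. Filled points were called, dashed lines mark 2-fold, and the black bar marks the lower bound for ULBP2. The points run from -6.96 for MICB to 5.25 for ULBP2, and 4 of 5 genes for peptide transport and loading lie near 0.

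All 10 basal markers tested were called higher in pLB, among them KRT5 (at least 1761-fold), and 8 of 10 luminal markers were called lower, among them ESR1 (3.47-fold by its brightest probe and at least 20.4-fold and 38.7-fold by the others). EPCAM, a luminal marker on the list, went the other way and was called 2.15-fold higher in pLB (adjusted p = 0.0042). CLDN3, ITGA6 (CD49f) and KRT5 (CK5) belong to these lists and were used to sort the cells, so their values do not check the labels. For most of the other markers the study had reported mRNA folds between these lines. Their directions were therefore known beforehand and are no independent check either. Correlation between arrays was 0.984 to 0.991 within pLUM, 0.972 to 0.989 within pLB and 0.780 to 0.806 between the lines. The 75th percentile of signal was 474 to 566 in pLUM and 449 to 869 in pLB. The 3 pLUM arrays and pLB replicate 1 shared a slide, and pLB replicates 2 and 3 lay on another. With slide as a block the line difference is therefore that of pLB replicate 1 from the pLUM arrays. The lowest of the 3 pLB values was that of replicate 3 for 20 of the 29 members.

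The class I heavy chains did not move alike. HLA-E, the chain that presents leader peptides to the inhibitory receptor NKG2A, was the single heavy chain called. Its log2 signal was 0.98, 0.89 and 1.17 in pLUM and 3.95, 3.76 and 3.07 in pLB. All pLB arrays lay above all pLUM arrays, and the fold change was 5.98 (log2 2.58 ± 0.25 SE, adjusted p = 0.00011).

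HLA-G and HLA-F, nonclassical chains with narrow tissue distributions, fell just short of the 2-fold limit. HLA-G gave 3.16, 2.94 and 3.07 in pLUM and 4.29, 4.24 and 3.61 in pLB, a 1.99-fold difference (adjusted p = 0.0062). HLA-F gave 1.40, 1.58 and 1.77 in pLUM and 2.80, 2.66 and 2.24 in pLB, a 1.97-fold difference (adjusted p = 0.0047). The lines did not overlap for either gene. A second HLA-F probe was called higher, at 2.35-fold (adjusted p = 0.00031). With a slide block, where only pLB replicate 1 sets the contrast, the log2 difference was 1.23 for HLA-G and 1.21 for HLA-F. Both genes were called without pLB replicate 3 (1.21 and 1.14). Both differences were smaller with quantile normalization (0.81 and 0.87), without pLB replicate 1 (0.87 and 0.86) and without pLB replicate 2 (0.89 and 0.93).

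The classical chains HLA-B and HLA-C, which present cytosolic peptides to T cells, were not called. The brightest HLA-B probe read 3.03, 3.20 and 3.43 in pLUM and 4.32, 3.64 and 3.50 in pLB, a log2 difference of 0.60 ± 0.25 (SE, adjusted p = 0.074). The brightest probe named HLA-C read 3.95, 3.97 and 4.18 in pLUM and 5.09, 4.53 and 4.16 in pLB, a log2 difference of 0.56 ± 0.25 (SE, adjusted p = 0.091). In both, pLB replicate 1 stood highest and replicate 3 reached down to the pLUM values or close to them. The slide block, which keeps only pLB replicate 1 in the contrast, gave log2 1.101 for HLA-B and 1.053 for HLA-C and called both. Another HLA-C probe differed 1.80-fold (adjusted p = 0.027) and 2 further HLA-B probes 1.37-fold and 1.47-fold, none of them past the 2-fold limit.

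The probe sequences bear on these names, because HLA genes are close relatives. Of all member probes, 3 shared a run of at least 25 bases with another probe on the array: 2 named HLA-B and the brightest probe named HLA-C. The files place all 3 on the - strand of hg19 within the same stretch, at chr6:31321663-31321722 and chr6:31321653-31321712 for HLA-B and at chr6:31321644-31321703 for the HLA-C probe, whereas the other HLA-C probe lies at chr6:31236617-31236676. The same 30 bases of each are shown, with the position at which they differ in capitals, and positions are counted from 1 at the 5′ end of the window.
HLA-B (brightest): agtcaattcctggaaGttgagagagcaaat
HLA-B (other): agtcaattcctggaaTttgagagagcaaat
HLA-C (brightest): agtcaattcctggaaGttgagagagcaaat
The other HLA-B probe carried the substitution G16T relative to the brightest, and the probe named HLA-C carried no difference from it over the 41 bases that they share. The values of the HLA-C probe at this place therefore cannot be assigned to HLA-C apart from HLA-B. Hybridization of other HLA transcripts to these probes, or to those named HLA-E, HLA-F and HLA-G, was not tested.

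B2M encodes the light chain shared by all class I molecules, and it was higher in pLB. Its log2 signal was -0.63, -0.31 and -0.29 in pLUM and 1.498, 1.57 and 0.94 in pLB, a 3.36-fold difference without overlap (log2 1.75 ± 0.22 SE, adjusted p = 0.00039).

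Peptide transport and loading showed no common shift, and 1 of its 5 genes was called. TAP1 and TAP2 encode the chains of the peptide transporter. TAP1 read 0.69, 0.99 and 1.14 in pLUM and 1.40, 1.01 and 0.50 in pLB (log2 difference 0.03 ± 0.26 SE, adjusted p = 0.93). TAP2 read -0.46, -0.64 and -0.87 in pLUM and -0.66, -0.41 and -0.71 in pLB (0.07 ± 0.18 SE, adjusted p = 0.77). The lines overlapped for both genes. TAPBPL, a peptide editor related to tapasin, also overlapped (0.11 ± 0.26 SE). PDIA3, the oxidoreductase ERp57 of the loading complex, was the gene called: 0.94, 1.18 and 1.09 in pLUM against 3.43, 3.44 and 3.39 in pLB. That is a 5.10-fold difference (adjusted p = 1.6e-05), with a spread of only 0.02 (SD) within pLB, and a second probe gave 3.40-fold in the same direction.

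TAPBP encodes tapasin, which bridges TAP and class I, and its 4 tested probes disagreed. The brightest, at chr6:33267718-33267777 (hg19), read 2.59, 2.60 and 2.78 in pLUM and 2.72, 2.55 and 2.47 in pLB, a log2 difference of -0.08 ± 0.16 (SE). A probe at chr6:33271911-33271970 was 1.29-fold higher in pLB and was not called (adjusted p = 0.088). Another probe, whose 60 bases the files place across a gap from chr6:33273141 to chr6:33281029, was called 3.89-fold lower (adjusted p = 0.00018). The last, at chr6:33272418-33272477, passed the background limit on every pLUM array but never in pLB, which makes it 2.69-fold lower or more. The mean of the 4 probes differed by -0.94. Transcripts of TAPBP that hold these stretches were not told apart here.

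The immunoproteasome subunits replace the standard catalytic subunits of the proteasome under interferon-gamma and alter the peptides it makes. PSMB8 read -3.64, -3.60 and -3.06 in pLUM and -1.62, -1.65 and -2.56 in pLB, a 2.81-fold difference (adjusted p = 0.004). PSMB9 read -4.93, -4.79 and -4.32 in pLUM and -3.35, -3.39 and -4.03 in pLB, a 2.13-fold difference (adjusted p = 0.008). The lines did not overlap for either gene, but these calls were fragile: with normexp background correction the log2 difference was 0.59 for PSMB8 and -0.09 for PSMB9, neither called. PSMB9 also lost its call without pLUM replicate 1 (0.96), pLB replicate 1 (0.97) or pLB replicate 2 (0.99). PSMB10 differed 1.48-fold and was not called.

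Both ER aminopeptidases, which trim peptide precursors to the length that class I binds, were called higher in pLB. ERAP2 had the wider difference of the pair. It read -3.60, -3.72 and -3.11 in pLUM and 1.01, 0.94 and 0.67 in pLB, which was 20.4-fold (log2 4.35 ± 0.22 SE, adjusted p = 4.6e-06) and 8.23-fold with normexp. ERAP1 read -0.43, -0.48 and -0.51 in pLUM and 1.12, 0.90 and 0.51 in pLB, which was 2.48-fold (adjusted p = 0.00088). A second ERAP1 probe never rose above background. Over the 16 class I pathway genes, 7 were called higher, none was called lower by its brightest probe, and 9 were not called. Of all tested genes, 22.7% were called higher and 23.0% lower.

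**Figure D2:**
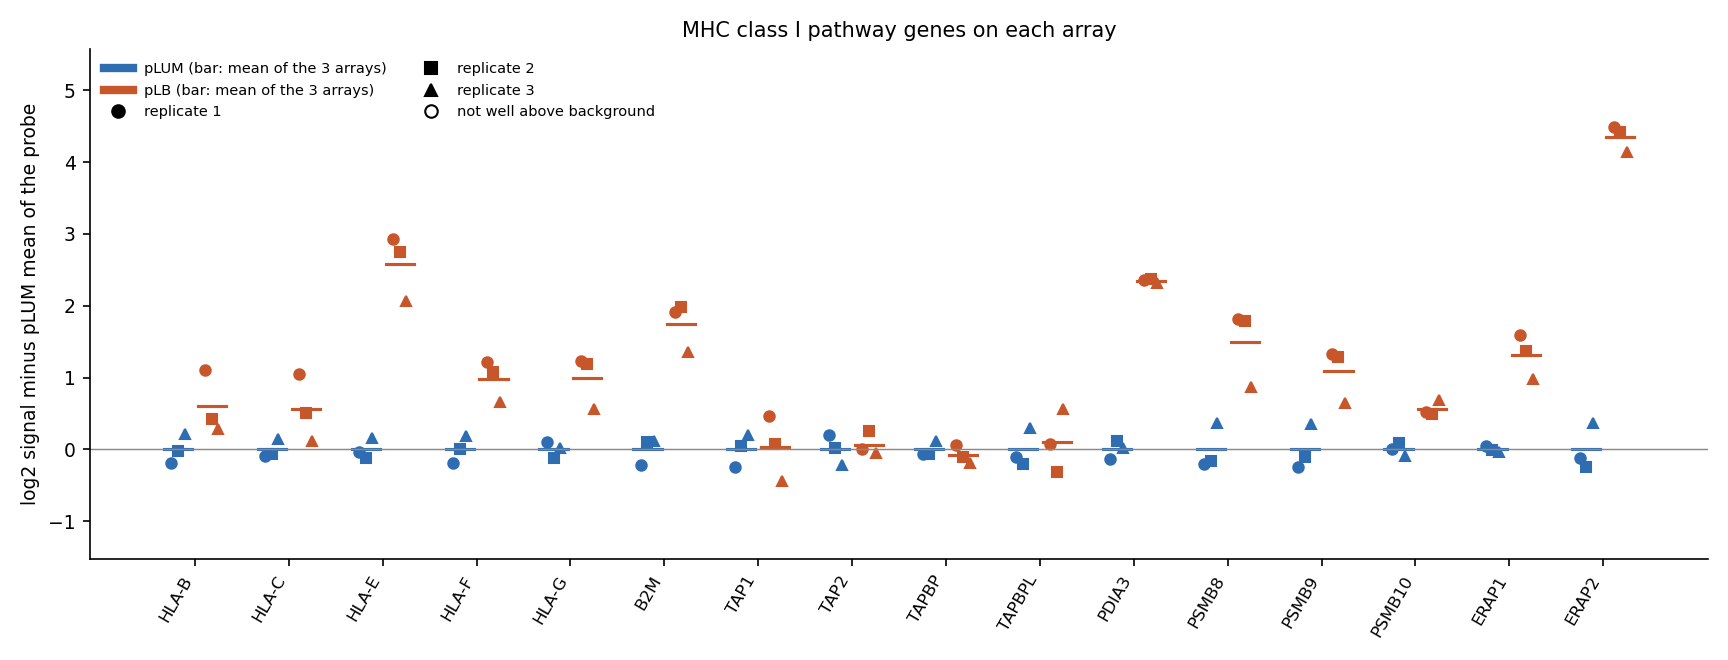
Log2 signal of each array minus the pLUM mean of the same probe (vertical axis) for the 16 class I pathway genes, with marker shape for replicate and a bar for the mean of 3 arrays. HLA-E, B2M, PDIA3 and ERAP2 stand clear of pLUM on all 3 pLB arrays, TAP1, TAP2, TAPBP and TAPBPL overlap, and pLB replicate 1 lies above replicates 2 and 3 for HLA-B and HLA-C.

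In the order of their probes along chromosome 6, HLA-DOB, TAP2, PSMB8, TAP1 and PSMB9 had fitted log2 differences of 2.11, 0.07, 1.49, 0.03 and 1.09. With normexp they were 0.38, 0.02, 0.59, 0.06 and -0.09, and none of the 5 was called. Differences between these genes were not tested.

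Of the transactivators of MHC genes, NLRC5 was called lower and RFX5 gave no single direction. NLRC5, the transactivator of class I genes, was lower in pLB: -2.32, -2.40 and -2.66 in pLUM against -4.60, -3.68 and -3.37 in pLB, a 2.68-fold difference (adjusted p = 0.0064). Its other probe was not tested, and with normexp background correction the difference was -0.95 and no longer called, while with the slide block it was -2.14 and called. RFX5, a subunit of the RFX complex at class I and class II promoters, was called higher from its brightest probe, with 0.59, 0.62 and 0.38 in pLUM and 1.86, 1.83 and 1.87 in pLB (2.50-fold, adjusted p = 0.00026). A second RFX5 probe went the other way, from 0.61, 0.69 and 0.82 to 0.20, 0.32 and 0.08 (1.42-fold lower, adjusted p = 0.028, below the 2-fold limit). The mean of both probes, 0.41, was not called, so that no direction can be given for RFX5 as a gene. CIITA, the class II transactivator, was well above background on no pLUM array and, with 1 of its 2 probes, on 1 pLB array, and it was not tested.

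**Figure D3:**
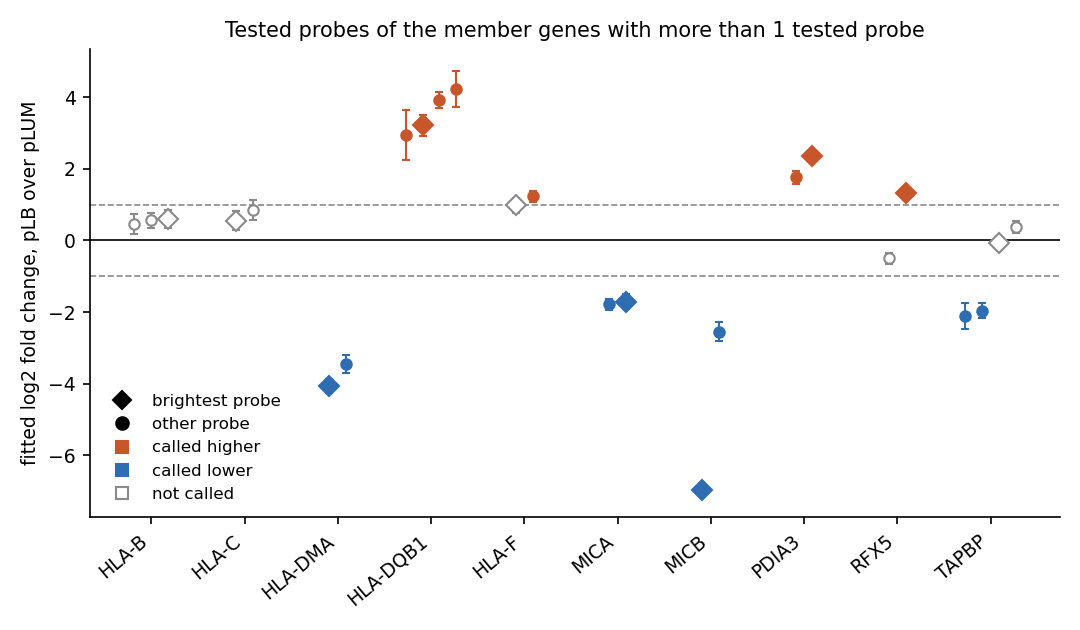
Fitted log2 fold change (vertical axis, pLB over pLUM, with standard error) of every tested probe of the 10 members with more than 1 tested probe. Diamonds mark the brightest probe, filled symbols were called and dashed lines mark 2-fold. The probes of RFX5 and of TAPBP lie on both sides of 0, while those of the other 8 genes lie on 1 side.

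For 7 of these 10 genes all probes had the same call. The exceptions were HLA-F, RFX5 and TAPBP.

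Of the 7 class II chains, 4 were tested and 2 were called higher. HLA-DQB1, a beta chain, was called higher by all 4 probes of that name. The brightest read -3.91, -4.43 and -3.99 in pLUM and -0.52, -0.65 and -1.49 in pLB, a 9.32-fold difference (log2 3.22 ± 0.29 SE, adjusted p = 7.7e-05), which was 2.94-fold with normexp. A probe well above background on 1 pLUM array gave 7.67-fold, and another gave 15.2-fold. A probe well above background on no pLUM array gave at least 8.72-fold. That last probe is placed at chr6:32725597-32725656 (hg19), close to the HLA-DQB2 probe at chr6:32726735-32726794. It lies apart from the others with a position, at chr6:32629125-32629184 and chr6:32627951-32628010. HLA-DRB5, another beta chain, read -4.56, -4.79 and -4.66 in pLUM and -1.97, -2.29 and -2.87 in pLB (4.91-fold, adjusted p = 0.00018), but was not called with normexp (log2 0.68). Close relatives share sequence, and which HLA-DRB or HLA-DQB transcript was caught was not tested.

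HLA-DRA and HLA-DQA1, the alpha chains that pair with DR and DQ beta chains, were well above background on no array, and neither was tested. Of the other class II chains, HLA-DRB1 read -1.85, -1.93 and -1.80 in pLUM and -1.62, -1.55 and -1.77 in pLB (1.16-fold, adjusted p = 0.26). HLA-DPA1 overlapped between the lines (log2 0.05 ± 0.44 SE, adjusted p = 0.92). Of the 5 HLA-DPB1 probes, none was tested, and the most frequently detected was above background on 2 pLUM arrays.

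The class II peptide exchange genes that could be tested differed in direction. HLA-DMA, a chain of the HLA-DM editor that swaps CLIP for peptide, was lower in pLB: -0.06, -0.18 and -0.23 in pLUM against -3.86, -4.47 and -4.36 in pLB. The difference was 16.8-fold (log2 -4.07 ± 0.20 SE, adjusted p = 4.7e-06), and a second probe gave 10.95-fold in the same direction. With normexp the brightest probe gave 6.78-fold. HLA-DOB, a chain of the HLA-DO inhibitor of HLA-DM, was higher: -4.48, -5.09 and -4.63 in pLUM, where 2 of 3 arrays were well above background, against -2.54, -2.77 and -2.56 in pLB (4.33-fold, adjusted p = 0.00011). With normexp HLA-DOB differed by log2 0.38 and was not called. Their partner chains HLA-DMB and HLA-DOA were not tested, HLA-DMB being above background on 1 pLB array and HLA-DOA on none.

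IFI30, the lysosomal thiol reductase GILT that opens disulfide bonds of antigens, was the gene of endolysosomal processing that could be tested. It read 1.32, 1.28 and 1.22 in pLUM and 4.46, 4.77 and 4.49 in pLB, a 9.83-fold difference (log2 3.30 ± 0.16 SE, adjusted p = 4.5e-06). CD74, the invariant chain, was well above background on 1 pLUM array and no pLB array. CTSS, the protease that cuts the invariant chain to CLIP, was above background on none. LGMN, an asparaginyl endopeptidase, was above background on 2 pLB arrays and no pLUM array, at least 2.37-fold higher, and was not tested. Over the 15 class II pathway genes, 4 were called higher, 1 was called lower, 2 were not called and 8 were not tested. The shares over all tested genes were 22.7% higher and 23.0% lower.

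Leukocytes are the usual source of class II transcripts, so their markers are given beside these values. Of 19 leukocyte markers with a probe, 4 were called higher in pLB (CD79A, CD3D, CD4 and CD68), 6 were not called and 9 were not tested. This list and the stromal list below are to be read beside all tested genes, with 22.7% called higher and 23.0% lower. PTPRC, the common leukocyte antigen, did not pass (log2 -0.47 ± 0.47 SE, adjusted p = 0.42) and was 2.30-fold lower by another probe. Nor did the monocyte marker CD14 pass (0.56 ± 0.21 SE, adjusted p = 0.052), and the B cell marker MS4A1 was not tested. CD79A, a chain of the B cell receptor complex, differed 18.4-fold. CD1C, CD2, CD79B, ITGAX and NKG7 were well above background on no array. The summed signal of the list, in units of the array's 75th percentile, was 4.01 to 6.74 in pLUM and 25.5 to 44.3 in pLB. Most of this sum came from CD4 and CD79A, and the other 17 genes summed to 0.695 to 0.879 in pLUM and 0.819 to 1.11 in pLB. Both lines had been cultured for months and sorted repeatedly on CLD3 and CD49f and then on CK5. Whether this removed all host cells was not tested. The tumors were human cells grown in mice, so that any host leukocytes or stromal cells carried over would be mouse cells. Hybridization of mouse transcripts to these probes was not tested. In bulk RNA, more cells of a type and more RNA per cell cannot be told apart, and the part of such cells in the class II values was not tested. Of 10 stromal and endothelial markers, 5 were tested and 3 were called higher, with a summed signal of 0.881 to 1.04 in pLUM and 1.40 to 2.00 in pLB. Without the brightest 2, COL1A1 and THY1, the other 8 genes summed to 0.094 to 0.156 in pLUM and 0.439 to 0.479 in pLB. Among these, COL1A2 was at least 11.5-fold higher in pLB.

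The NKG2D ligands divided by family. The MIC genes, whose products carry an MHC-like fold and stay anchored by a transmembrane segment, were lower in pLB. MICB read 2.39, 2.28 and 2.36 in pLUM and -4.77, -4.37 and -4.71 in pLB, where 2 of the 3 arrays were well above background. The difference was 125-fold (log2 -6.96 ± 0.17 SE, adjusted p = 3.7e-07), and 33.3-fold with normexp, with no overlap between the lines. A second MICB probe, also above background on 2 of 3 pLB arrays, read -1.67, -1.69 and -1.46 in pLUM and -3.79, -3.94 and -4.72 in pLB. Its difference was 5.84-fold (adjusted p = 0.00015), so that the size differed with the probe and the direction did not. These probes lie at chr6:31478833-31478892 and chr6:31475185-31475244 (hg19).

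MICA, the closest relative of MICB, differed less. Its brightest probe read 2.71, 2.68 and 2.65 in pLUM and 1.27, 1.03 and 0.60 in pLB (3.28-fold lower, adjusted p = 0.00029), and a neighbouring probe was 3.45-fold lower. The lines did not overlap for either probe.

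The ULBP genes, several of whose products are held to the membrane by a lipid anchor, were higher in pLB where tested. ULBP2 was well above background on no pLUM array and on all 3 pLB arrays, which read -1.62, -1.95 and -2.12. It was at least 11.2-fold higher (fitted log2 5.25 ± 0.37 SE, adjusted p = 2.35e-05). With normexp the fitted log2 difference was 1.29. ULBP1 read -0.51, -0.44 and -0.17 in pLUM and 1.29, 1.51 and 0.93 in pLB, a 3.07-fold difference without overlap (adjusted p = 0.00039). ULBP3 was above background on 2 pLB arrays and no pLUM array, at least 1.76-fold higher, and was not tested. The upstream windows of ULBP1, ULBP2, MICA and MICB are those shown above, with TGACG in ULBP1 and ULBP2 and CCAAT in ULBP2, MICA and MICB. ULBP3 held neither motif, so TGACG was not shared by the 3 ULBP genes.

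**Figure D4:**
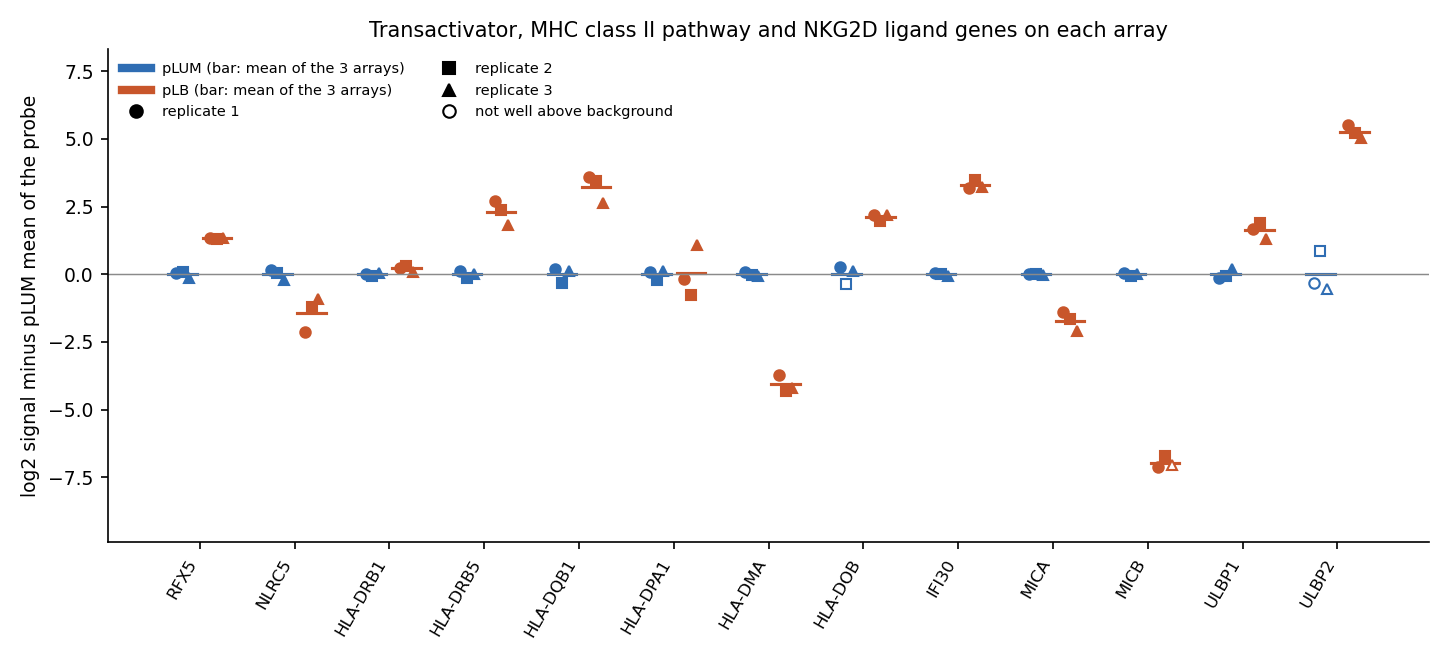
Log2 signal of each array minus the pLUM mean of the same probe (vertical axis) for the transactivators, tested class II pathway genes and NKG2D ligands, with marker shape for replicate and open symbols for values not well above background. HLA-DMA, MICA, MICB and NLRC5 lie below pLUM on all 3 pLB arrays, while IFI30, HLA-DQB1, ULBP1 and ULBP2 lie above it.

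Other genes of these pathways were taken as lists by function. Of 72 related genes with a probe, 60 were tested, of which 33 were called higher and 6 lower, with a median log2 difference of 1.11. Over all tested genes 22.7% were called higher and 23.0% lower, with a median of 0.04. Each list below is to be read beside these shares. Interferon-gamma signalling gave 3 genes higher and 1 lower of 8 tested. The receptor chains IFNGR1 (2.15-fold) and IFNGR2 (2.06-fold) and the feedback inhibitor SOCS1 (5.08-fold) were higher and STAT2 was 2.92-fold lower. With normexp background correction none of the 3 genes called higher kept its call. IRF1, a transcription factor of interferon responses that binds MHC promoters, was not tested. Both receptor chains lost their call without pLB replicate 1 (log2 0.99 for IFNGR1 and 1.00 for IFNGR2), and IFNGR2 also without pLUM replicate 1 (0.92). Among the partners of RFX5 at MHC promoters, NFYA was 2.33-fold and NFYC 2.32-fold higher by their brightest probes, and NFYB (3.51-fold) and RFXAP (4.09-fold) were lower. A second NFYA probe went the other way (log2 -0.64), and the NFYA call was lost with the mean of both probes (0.29) and with normexp (0.78). Of 3 further NFYC probes, 2 were called higher and 1 was not called (-0.02).

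ER chaperones that fold and check class I chains were higher for 8 of 11 genes, and none was called lower. The list was led by HSPA5, the chaperone BiP (8.70-fold), CANX, calnexin, which holds free heavy chains (4.50-fold), and PRKCSH, a subunit of glucosidase II (4.12-fold). A dimmer CANX probe was not called (log2 0.19), and the mean of both gave 2.27-fold. HM13 lost its call with the mean of its probes (log2 0.59), and CALR with quantile normalization (0.90). GANAB lost its call with quantile normalization (0.88), without pLUM replicate 2 (0.89) or without pLB replicate 1 (0.90). The standard catalytic subunits of the proteasome were called higher by their brightest probes: PSMB7 4.49-fold, from 2 of 3 pLUM arrays because an outlier flag removed the third, PSMB5 2.18-fold and PSMB6 2.10-fold. A second, dim PSMB7 probe was not called (log2 0.15), and the mean of both lost the PSMB7 call (adjusted p = 0.087). PSMB5 overlapped between the lines and lost its call without pLUM replicate 1 (log2 0.94), pLUM replicate 2 (1.097), pLB replicate 1 (0.87) or pLB replicate 2 (0.96), and with the replicate block (adjusted p = 0.085). PSMB6 lost its call without pLUM replicate 1 (0.96), pLB replicate 1 (0.92) or pLB replicate 2 (0.93). PSME3, a nuclear proteasome activator, was higher (2.42-fold), and PSME4, an activator tied to histone turnover, was 2.04-fold lower. The PSME4 call was lost without pLUM replicate 1 (-0.93), pLUM replicate 2 (-0.98) or pLB replicate 2 (-0.93), and another of its probes was higher (0.68).

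Among the other endolysosomal proteases, CTSV and CTSL, named CTSL2 and CTSL1 on the array, were 22.4-fold and 9.41-fold higher, CTSD 2.43-fold higher and CTSF 4.39-fold lower. A second CTSL probe was called in the other direction (2.56-fold lower), and the mean of both, log2 0.94, was not called. Of the class I-like molecules, PROCR, the endothelial protein C receptor, was 91.1-fold higher, and MR1, which presents vitamin B metabolites to MAIT cells, was 5.48-fold higher. AZGP1, a secreted class I-like lipid-mobilizing protein, was above background on no pLB array and at least 52.5-fold lower. With normexp the folds were 44.4 for PROCR, 3.63 for MR1 and 14.3 for AZGP1, all in the same directions. The lipid-presenting CD1 genes (CD1A to CD1E) were well above background on no array.

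Other ligands of NK cell receptors were higher for 6 of 9 tested genes and lower for none. NECTIN3 (PVRL3 on the array), a nectin bound by TIGIT, was 30.1-fold higher, ICAM1, the adhesion ligand of LFA-1, 16.6-fold, and CD70, the ligand of CD27, 9.36-fold. With normexp these were 9.23-fold for NECTIN3 (PVRL3) and 2.59-fold for CD70. CLEC2D, the ligand of CD161, was called in opposite directions by 2 probes (log2 1.79 and -2.45). RAET1G and RAET1L had no probe under these names. The proteases and partners that release NKG2D ligands from the cell surface were higher for 5 of 6 genes: MMP14 at least 56.7-fold, ADAM10 7.99-fold and PDIA6 3.96-fold lead the list. With normexp MMP14 was 9.12-fold higher, while ADAM17 (log2 0.96) and MMP9 (0.79) lost their calls.

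**Figure D5:**
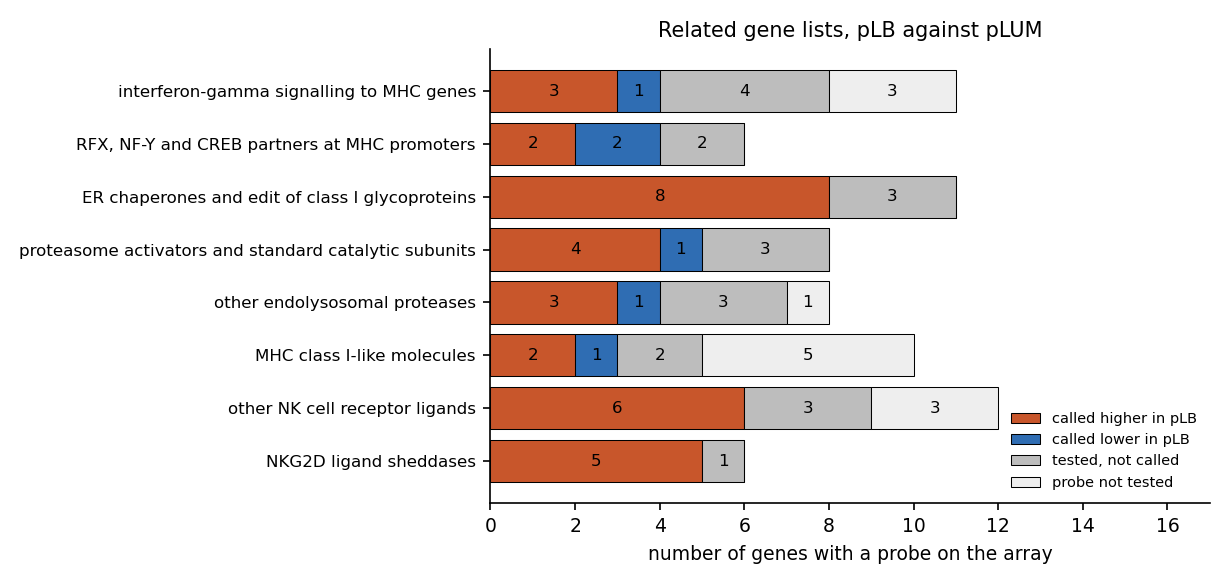
Number of genes with a probe (horizontal axis) in each related list, divided into genes called higher in pLB, called lower, tested and not called, and not tested. Calls in the higher direction make up most of the tested genes in the ER chaperone, NK ligand and sheddase lists (8, 6 and 5 genes), whereas the RFX, NF-Y and CREB list holds 2 in each direction.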

How the data were processed

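RNA of 3 pLUM and 3 pLB samples was measured on 1-colour (Cy3) Agilent arrays of 60-base probes. The authors deposited the Agilent Feature Extraction 10.10.1.1 output of each array, whose intensity values are on a linear scale, background-corrected and detrended within the array but not normalized between arrays. The submitters' processing notes name Partek, for which no settings were given in the sources used here. Gene names and positions (hg19) are those of the files.

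From the deposited intensity, log2 values minus the array's 75th percentile were computed without control spots and without the 296 to 387 spots of an array that carry an outlier flag, and replicate spots were combined by their mean. Probes that 3 or more of the 6 arrays read well above background were tested (23105 of 34127) by moderated linear models without covariates (limma 3.58.1, R 4.3.3) and Benjamini-Hochberg adjustment. Calls needed both 2-fold or more and an adjusted p below 0.05. A gene was represented by its brightest tested probe. Where a line had no array well above background, the fold is a lower bound, the mean of the bright line against the lowest signal well above background on each array of the other (or the probe's own signal if higher). The number of arrays limits the precision. Tested on simulated data for pLB against pLUM over 23099 probes, the fit recovered 16% of changes of 1, 50% of 1.5, 74% of 2 and 88% of 3 log2 units, with 4 false calls. The simulation changed only 200 probes, whereas 5054 probes were called higher and 5476 lower in the data, and the adjusted p depends on that share. A change of 1 also lies on the 2-fold limit. These percentages therefore do not give the recovery in the real comparison.

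All members are named, and of each related list up to 3 called genes per direction by fitted change, with IRF1, PSMB5, PSMB6 and PSMB7, and the markers PTPRC, CD14, MS4A1, KRT5 and ESR1. The members and lists were chosen with earlier results of these data known. Further markers, ADAM17, MMP9, CALR, GANAB, HM13, CLEC2D and the HLA transcripts that are not members were named after their values were seen. Replicate numbers were not used as pairs. Alternatives changed the background correction (normexp), the scaling (quantile, median, spike-in), the filter or floor, the threshold, the test (the methods' t-test), the choice of probe or the block (slide, replicate), or left out 1 array. Promoters are those of RefSeq for GRCh38.p14, with 7 members not matched. The result of 1 gene that this rule names is not reported here.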

Additional observations from a re-analysis of the deposited data

How the results depend on the processing

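Over the 20 alternatives, the members called higher numbered 12 to 18 and those called lower 3 to 6, against 14 and 4, and the related genes 27 to 37 and 5 to 9. Of the 18 members called, 12 kept their call in every alternative in which they were tested: ERAP1, ERAP2, B2M, HLA-E, PDIA3, HLA-DQB1, HLA-DMA, IFI30, MICA, MICB, ULBP1 and ULBP2. The median log2 difference of the tested members was 0.99, and it moved to 0.63 with normexp background correction and to 0.57 with no filter on dim probes, which added 10 genes near background. Normexp turned PSMB9 to -0.0865 and HLA-DQB2 to -0.0477, and it removed the calls of PSMB8, HLA-DOB, HLA-DRB5 and NLRC5; averaging the probes turned CLEC2D to -0.33, and the cause was not tested. The median of all genes moved by 0.25 with spike-in scaling, where 58.6% of all called probes were higher instead of 48.0%, and by -0.24 with normexp. Spike-in scaling added HLA-F and HLA-G, at log2 1.23 and 1.24, which is under 2-fold relative to that shift. The slide block gave 18 and 4 members. With the replicate block the counts stayed at 14 and 4. Same-numbered arrays deviated with correlations of -0.27, -0.09 and -0.22, and arrays of different numbers with -0.03 to 0.25. Deviations from a mean of 3 arrays depend on each other, so these values cannot decide whether same-numbered sorts were made together. Leaving out 1 array at a time gave 13 to 16 members higher, 4 lower and a median of 0.87 to 1.21. Signals near background, as of HLA-DOB, PSMB9 and the pLB arrays of MICB, limit the size of a fold change.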

Other observations

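Other transcripts of the HLA region, which are not among the 39 genes and were chosen after their values were seen, also differed between the lines in part. HLA-DQB2, the gene next to which the files place 1 probe named HLA-DQB1, was well above background on no pLUM array and all 3 pLB arrays, at least 2.82-fold higher in pLB (adjusted p = 0.0011 by limma), but log2 -0.0477 with normexp. HLA-DQA2 went the other way, above background on all 3 pLUM arrays and on no pLB array, at least 2.30-fold lower, and its call was lost with normexp (log2 -0.89). HLA-DRB3 read 1.41-fold higher in pLB and did not pass (adjusted p = 0.099). HLA-F-AS1, an antisense transcript at HLA-F, was 2.05-fold higher, though not past 2-fold without pLUM replicate 1 (log2 0.94) or pLB replicate 1 (0.87), and the pseudogene HLA-J was not called (log2 0.48 ± 0.33 SE). HLA-DRB4 and HLA-L were above background on 2 arrays and 1 array and were not tested, and HLA-DRB6, HLA-DPB2 and HCP5 were above background on none.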
